A study of Mus musculus with 6 samples.

Results

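Messenger RNA levels of 10 genes that carry glucose into the cell and break it down to lactate were read in 6 mouse libraries. The genes were the glucose transporters Slc2a1, Slc2a3 and Slc2a4, the hexokinases Hk1 and Hk2, the phosphofructokinase subunits Pfkl and Pfkp, and the later enzymes Pgk1, Pkm and Ldha. They were taken by name as a list, and all 10 were among the 22180 genes measured, on 11 probe sets that the platform annotation pairs with a single symbol. The platform was the Affymetrix Mouse Gene 2.0 ST array, with 1 array per library, and each value is a log2 expression value after RMA, a normalization that gives all arrays nearly the same distribution.

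Each of the 6 groups was 1 library. The heart-derived libraries were labelled as cardiomyocytes from adult mouse heart and from neonatal mouse heart, and are called the adult and the neonatal library. Another 3 were day 7 cardiac differentiation cultures of iPS cells, grown for 5 days in suspension as embryoid bodies and then plated on gelatin with 1% DMSO plus 100 ng/ml NRG-1, with 100 ng/ml NRG-1 alone, or with 1% DMSO alone. NRG-1 is neuregulin 1, a growth factor that binds ERBB receptors, and DMSO is a solvent long used to push stem cells to differentiate. The last library held undifferentiated iPS cells, reprogrammed pluripotent cells that were kept on feeder cells with LIF in high-glucose medium containing serum. All 6 carry the labels DBA/2J and female. The labels describe no medium for the heart cells and no untreated day-7 culture, and they do not say how many animals or dishes went into a library. A difference from iPS cells therefore covers differentiation and the added agents together. No difference below has a replicate and none was tested, so precision is limited by the number of arrays.

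The labels of the heart-derived libraries were checked first, and both held Y-linked signal although labelled female. The Y-linked gene Eif2s3y stood at 8.15 in the adult and 6.20 in the neonatal library, against at most 3.32 in the others. Xist, the RNA of the inactive X chromosome, stood at 3.39 in the adult library but at 8.78 in the neonatal one, the highest of the 6, and at 5.97 to 6.91 in the other 4. The neonatal library thus held both signals. Of 14 cardiomyocyte markers, 8 reached the median of all array values (5.20) in the adult and 13 in the neonatal library, against 14 with DMSO + NRG-1, 13 with NRG-1, 14 with DMSO and 10 in iPS cells. In the adult library the myosin heavy chains Myh6 and Myh7 stood at 5.05 and 4.82, the calcium release channel Ryr2 at 4.96 and titin (Ttn) at 4.76, all below that median. The 8 that reached it there included Tnnt2 at 8.22 and Nkx2-5 at 7.19, against 6.35 and 6.69 in iPS cells. Of the 14, 1 was at least 2-fold higher in the adult library than in iPS cells and 0 were lower. The summed level of 10 fibroblast markers, as log2 of the sum, was 14.7 in the adult and 14.2 in the neonatal library, 12.5 to 12.8 in the cultures and 10.2 in iPS cells. That of 6 epithelial markers was 8.73 and 10.4 in the adult and neonatal libraries, 13.5 to 13.6 in the cultures and 10.4 in iPS cells. Of 8 pluripotency markers, 7 were at least 2-fold lower than in iPS cells in each of the other 5 libraries, and neither of the 2 measured erythroid markers was 2-fold apart in any. The part of these other cell types in the values below was not tested, and on an array of bulk RNA fewer cells of a type cannot be told apart from less RNA per cell.

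Glycolysis turns glucose into pyruvate in the cytosol, and lactate dehydrogenase can turn pyruvate into lactate. Glucose enters through facilitative transporters, hexokinase traps it as glucose 6-phosphate, and phosphofructokinase makes the committed step. Pluripotent cells and the fetal heart are known for heavy use of glycolysis, whereas the adult heart burns mainly fatty acids and takes up glucose largely through the insulin-responsive transporter encoded by Slc2a4. Several of these steps have isozymes made by separate genes, so a tissue can change the isozyme without changing the step.

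**Figure D1:**
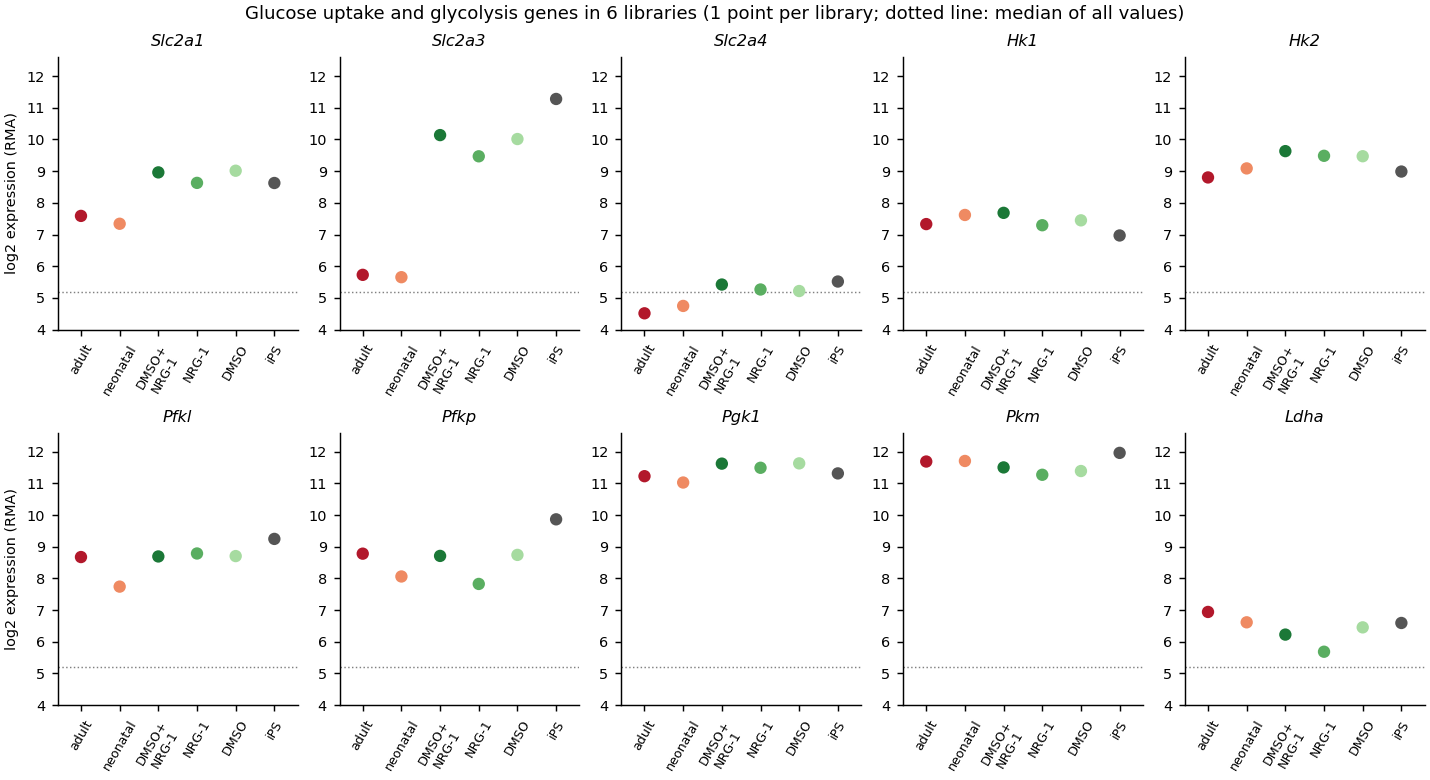
Each panel shows 1 gene, with the log2 expression value (RMA) on the y axis and the 6 libraries on the x axis, 1 point per library. The dotted line is the median of all array values. Slc2a3 spans 5.62 log2 units, from 5.65 in the neonatal library to 11.28 in iPS cells, while Pgk1 spans 0.60.

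Among the transporters, Slc2a3 had the widest span of all 10 members, and the 3 genes did not share 1 pattern. Slc2a3 encodes GLUT3, a high-affinity transporter best known from neurons and early embryos. Its level was 5.73 in the adult and 5.65 in the neonatal library, 10.14 with DMSO + NRG-1, 9.47 with NRG-1, 10.01 with DMSO and 11.28 in iPS cells. The heart-derived libraries were far below all others, and the cultures lay between them and iPS cells. Adult minus iPS was -5.55 (rank 16 from the lowest of 13760 genes) and neonatal minus iPS -5.62 (rank 21 of 13582), which is 46.9-fold and 49.3-fold below iPS cells. The cultures were lower than iPS cells by smaller amounts, -1.14 with DMSO + NRG-1, -1.81 with NRG-1 and -1.26 with DMSO. Even the lowest culture stood 13.4-fold above the higher of the heart-derived libraries.

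Slc2a1 encodes GLUT1, the transporter of basal glucose uptake in most proliferating cells. Its level, the mean of 2 probe sets, was 7.59 in the adult and 7.34 in the neonatal library, 8.96 with DMSO + NRG-1, 8.63 with NRG-1, 9.01 with DMSO and 8.63 in iPS cells. Here the cultures were at or above iPS cells, and the heart-derived libraries were again the low ones. Adult minus iPS was -1.04 and neonatal minus iPS -1.29, whereas the cultures differed from iPS cells by 0.34, 0.00 and 0.39 with DMSO + NRG-1, NRG-1 and DMSO. The 2 probe sets went the same way for the heart-derived libraries but not by the same amount. The brighter one gave -1.40 for adult and -1.76 for neonatal minus iPS, and the dimmer one -0.68 and -0.82. In the cultures they disagreed in sign for NRG-1 minus iPS, at 0.22 and -0.21, and for DMSO + NRG-1 minus iPS, at 0.69 and -0.02. Probe sequences were not used here, and the cause of the disagreement was not tested.

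Slc2a4 encodes GLUT4, which insulin and contraction bring to the surface of heart, muscle and fat cells. Its level was 4.51 in the adult and 4.75 in the neonatal library, 5.42 with DMSO + NRG-1, 5.27 with NRG-1, 5.22 with DMSO and 5.52 in iPS cells. Both heart-derived libraries were below the median of all array values and the other 4 stood just above it, so this transporter of the mature heart was not higher in the libraries labelled as cardiomyocytes. Adult minus iPS was -1.003 and neonatal minus iPS -0.77. The values lie where the array carries little signal, and no detection values came with the table. Of 8 skeletal muscle markers 0, and of 6 adipocyte markers 2, were at least 2-fold higher in the adult library than in iPS cells, with 0 and 2 in the neonatal one.

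Slc2a1 and Slc2a3 were the members at least 2-fold higher in every culture than in both heart-derived libraries, 2 of 10, against 4.64% of all genes on the same rule. No member was at least 2-fold lower in every culture than in both, against 4.71% of genes. For Slc2a1 the lowest culture stood only 1.04 above the higher of the heart-derived libraries. Its brighter probe set had 11.61 with NRG-1 and 9.99 in the adult library. The dimmer one had 5.65 and 5.19, less than 2-fold apart. On the same rule against iPS cells, 2 of 10 (Slc2a3 and Pfkp) were lower in every culture, against 10.2% of genes, and 3 of 10 (those and Slc2a1) in both heart-derived libraries, against 8.73%, with 0 higher in either set, against 9.01% and 9.87%. Among 10 other glucose carrier genes, Slc2a2, the low-affinity transporter of liver and yolk sac, was higher than in iPS cells by 1.37 with DMSO + NRG-1, 1.09 with NRG-1 and 1.44 with DMSO. Slc2a13, a proton-coupled inositol transporter, was higher by 1.29 in the adult and 1.20 in the neonatal library, and Slc2a10 by 1.14 in the adult library. Slc2a5, the fructose transporter, was lower, at -1.02 with DMSO + NRG-1, -1.08 with NRG-1 and -1.05 in the neonatal library.

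The hexokinases varied little. Hk1, the isozyme found in most tissues, had 7.33 in the adult and 7.62 in the neonatal library, 7.68 with DMSO + NRG-1, 7.29 with NRG-1, 7.45 with DMSO and 6.97 in iPS cells. It was the one member lowest in iPS cells, with the other 5 libraries above it by 0.32 to 0.71. A further probe set, annotated to Hk1 and its antisense gene Hk1os together, was left out of the value and differed from iPS cells by -0.13 to 0.26. Hk2, the insulin-regulated isozyme of heart and muscle, had 8.80 in the adult and 9.09 in the neonatal library, 9.63 with DMSO + NRG-1, 9.48 with NRG-1, 9.47 with DMSO and 8.99 in iPS cells. All 3 cultures lay above the other libraries, by 0.48 to 0.64 over iPS cells, and no difference of either gene reached 2-fold.

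A hexokinase gene outside the list differed far more. Hkdc1, which encodes a further hexokinase-like protein, stood at 9.53 with DMSO + NRG-1, 9.55 with NRG-1 and 9.18 with DMSO, against 6.25 in iPS cells, and at 5.66 in the adult and 5.86 in the neonatal library. The cultures were thus higher than iPS cells by 3.27, 3.30 and 2.93. Endoderm and epithelial markers moved with it. Of 8 endoderm markers, 8 with DMSO + NRG-1, 7 with NRG-1 and 7 with DMSO were at least 2-fold higher than in iPS cells, and the part of those cells in the level of Hkdc1 was not tested. Hk3 was below the median of all array values in every library.

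The phosphofructokinase subunits Pfkp and Pfkl were highest in iPS cells. Pfkp, the platelet-type subunit, had 8.78 in the adult and 8.06 in the neonatal library, 8.71 with DMSO + NRG-1, 7.83 with NRG-1, 8.74 with DMSO and 9.87 in iPS cells. It was below iPS cells in all 5 other libraries, with NRG-1 alone the lowest and the neonatal library next. Adult minus iPS was -1.08, neonatal minus iPS -1.80, DMSO + NRG-1 minus iPS -1.15, NRG-1 minus iPS -2.04 and DMSO minus iPS -1.12. For NRG-1 minus iPS this placed Pfkp at rank 479 from the lowest of 13763 genes.

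Pfkl, the liver-type subunit, had 8.67 in the adult and 7.74 in the neonatal library, 8.69 with DMSO + NRG-1, 8.79 with NRG-1, 8.71 with DMSO and 9.25 in iPS cells. The neonatal library stood apart, at -1.51 against iPS cells, and the other 4 differed from iPS cells by -0.57 to -0.46. Both subunits were therefore higher in the adult library than in the neonatal one, adult minus neonatal being 0.93 for Pfkl and 0.72 for Pfkp. Pfkm, the muscle-type subunit that dominates in adult heart, followed another order, highest in the adult library and higher in both heart-derived libraries than in the 3 cultures. It had 7.07 in the adult, 6.71 in the neonatal, 6.39, 6.05 and 6.06 with DMSO + NRG-1, NRG-1 and DMSO, and 6.86 in iPS cells.

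Fructose 2,6-bisphosphate, the strongest activator of phosphofructokinase, is made and removed by the PFKFB enzymes. Pfkfb3, a form with high kinase activity, stood at 8.98 with DMSO + NRG-1, 8.17 with NRG-1 and 8.92 with DMSO, against 5.36 in iPS cells, and at 6.33 in the adult and 7.23 in the neonatal library. Against iPS cells it was higher by 3.62, 2.80 and 3.56 in the cultures and by 1.86 in the neonatal library. Pfkfb2, the heart form, was higher in the cultures by 1.46, 1.10 and 1.36, and Pfkfb4 by 1.56, 1.04 and 1.16. These PFKFB genes were higher in the cultures, where the catalytic subunits Pfkl and Pfkp were lower than in iPS cells. Of the 4 measured genes of this group, 3 were thus at least 2-fold higher in each culture. Tigar, which removes fructose 2,6-bisphosphate, was lower, at -1.01 with DMSO + NRG-1, -1.05 with DMSO and -1.26 in the adult library.

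Pgk1, phosphoglycerate kinase and the first ATP-making step of the pathway, was among the steadiest members. Its level was 11.23 in the adult and 11.03 in the neonatal library, 11.62 with DMSO + NRG-1, 11.49 with NRG-1, 11.63 with DMSO and 11.31 in iPS cells. The cultures were above the other 3 libraries, and the whole span was 1.52-fold. Pkm, pyruvate kinase M, had 11.69 in the adult and 11.71 in the neonatal library, 11.50 with DMSO + NRG-1, 11.27 with NRG-1, 11.39 with DMSO and 11.96 in iPS cells. Unlike Pgk1, it was higher in both heart-derived libraries than in all 3 cultures, and highest in iPS cells. The M1 and M2 forms of Pkm arise by splicing from 1 gene and cannot be told apart by its single probe set. Pgk1, Ldha and Gapdh have processed pseudogene copies in the mouse genome, and cross-hybridisation to such copies was not tested.

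Ldha encodes the A subunit of lactate dehydrogenase, the form that favours lactate production. Its level was 6.94 in the adult and 6.62 in the neonatal library, 6.23 with DMSO + NRG-1, 5.69 with NRG-1, 6.46 with DMSO and 6.59 in iPS cells. The library with NRG-1 alone was the lowest, not far above the median of all array values (5.20), and both heart-derived libraries were above all cultures. Ldhb, the B subunit and the main form of the adult heart, followed another order. It had 6.58 in the adult and 6.68 in the neonatal library, 6.95 with DMSO + NRG-1, 7.70 with NRG-1, 6.74 with DMSO and 8.47 in iPS cells. The NRG-1 library was thus the lowest of the cultures for Ldha, at -0.91 against iPS cells, and the highest of them for Ldhb, at -0.77.

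**Figure D2:**
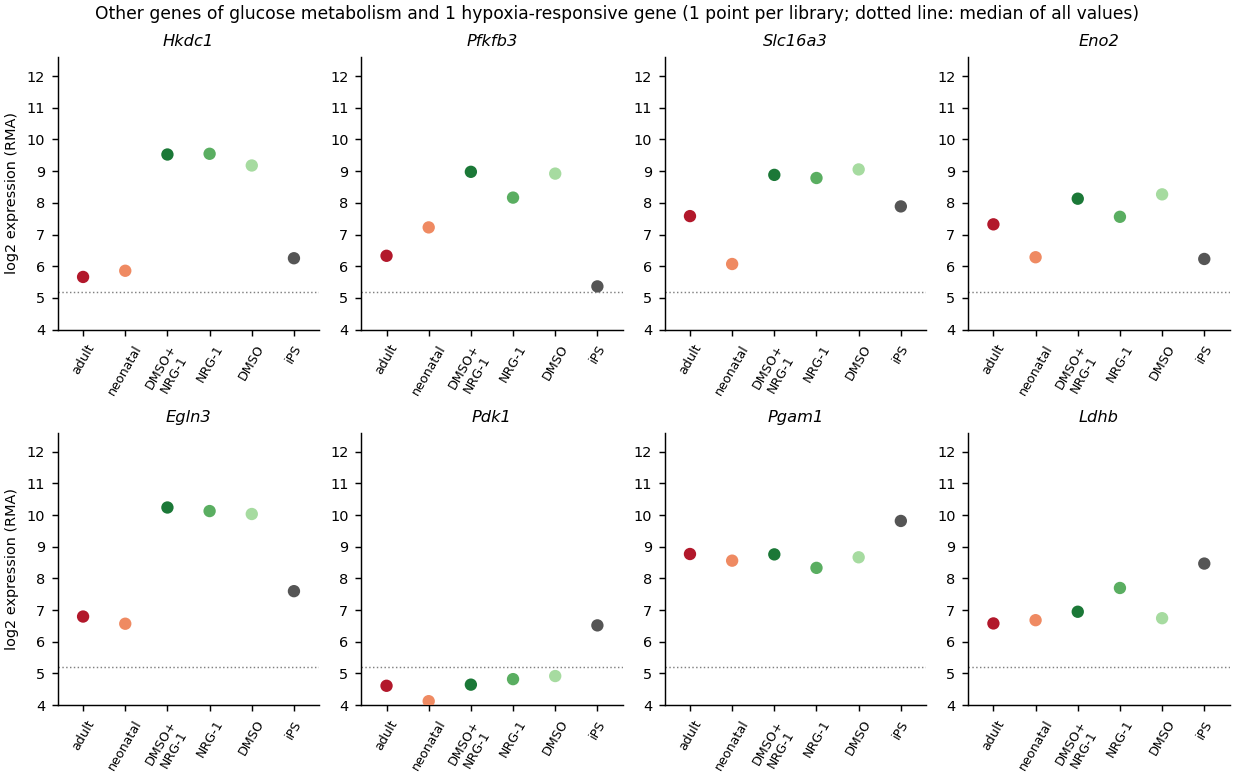
Each panel shows 1 gene outside the list of 10, with the log2 expression value (RMA) on the y axis and the 6 libraries on the x axis, 1 point per library, and the median of all array values as a dotted line. Hkdc1, Pfkfb3 and Egln3 are higher in the 3 cultures than in the other 3 libraries, while Pdk1, Pgam1 and Ldhb are highest in iPS cells.

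Of 15 measured further enzymes of the pathway, 2 were at least 2-fold higher and 2 lower than in iPS cells with DMSO + NRG-1, 2 higher and 1 lower with NRG-1, and 2 higher and 2 lower with DMSO. The higher ones were Hkdc1 and Eno2, the neuronal enolase (1.90, 1.33 and 2.04 in the same order). Pgam1, a phosphoglycerate mutase, was lower in each, at -1.06, -1.48 and -1.15, and Ldhb was at -1.52 with DMSO + NRG-1 and -1.72 with DMSO. In the adult library 1 was higher (Eno2, 1.09) and 3 were lower, and in the neonatal library none was higher and 3 were lower, namely Ldhb (-1.89 and -1.79), the brain-type aldolase Aldoc (-1.53 and -1.77) and Pgam1 (-1.04 and -1.25). Gapdh, the most used reference gene of the pathway, ranged from 11.56 with NRG-1 to 12.22 in the adult library. Gpi1, Aldoa and Eno1 were not analysed here.

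Among 6 carriers of lactate and pyruvate, Bsg, the chaperone that brings lactate carriers to the membrane, was higher than in iPS cells by 1.55 with DMSO + NRG-1, 1.17 with NRG-1 and 1.54 with DMSO. Slc16a3, the lactate exporter MCT4, had 8.88 with DMSO + NRG-1, 8.78 with NRG-1 and 9.05 with DMSO, against 7.89 in iPS cells. It was higher in every culture, but past 2-fold only with DMSO, by 1.17. In the neonatal library it was lower, at -1.82. Slc16a1, MCT1, was lower in the adult library, at -1.76. At the entry to the mitochondrion, the pyruvate dehydrogenase subunits Pdha1 and Pdhb were lower in the cultures, at -1.13 and -1.23 with DMSO + NRG-1, -1.26 and -1.55 with NRG-1 and -1.23 and -1.19 with DMSO. Of 11 genes of this complex and its regulators, 2 were at least 2-fold higher and 4 lower than in iPS cells in each culture. The kinases that switch it off went in both directions. Pdk4, the form induced by fasting and fatty acids, was higher by 2.21, 1.32 and 2.30 and Pdk2 by 1.56, 1.27 and 1.34, whereas Pdk1, a hypoxia-responsive form, was lower, at -1.87, -1.70 and -1.60, and so was Pdk3, at -1.41, -1.23 and -1.30. Pdk1 was also lower in the adult and neonatal libraries, at -1.91 and -2.39.

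Set together, the 10 members were mostly lower than in iPS cells or close to it. None of the members (0) was at least 2-fold higher in the adult library, against 13.1% of the 13760 genes that reached the median of all array values in either library, and 4 were lower, against 14.1%. The 4 were Slc2a3 (-5.55), Pfkp (-1.08), Slc2a1 (-1.04) and Slc2a4 (-1.003), the last of them at the threshold and Pfkp and Slc2a1 close to it. The median difference of the 10 was -0.42, against -0.06 over all genes that passed. In the neonatal library 0 were higher (13% of 13582 genes) and 4 lower (11.2%), namely Slc2a3, Pfkp, Pfkl and Slc2a1, with a median of -0.53 against -0.07. These comparisons share the iPS library, so they are not independent.

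In the cultures Slc2a3 and Pfkp were the 2 members at least 2-fold lower than in iPS cells under each treatment, and 0 were higher. The share of all genes lower was 13.1% with DMSO + NRG-1, 14.5% with NRG-1 and 13.3% with DMSO, and the share higher was 13%, 11.3% and 13.1%. The members' median differences were -0.23, -0.36 and -0.22, against -0.02, -0.02 and -0.01 over all genes that passed. Hk1, Hk2 and Pgk1 were above iPS cells in all 3 cultures, by 0.18 to 0.71. Each library was also shifted to an equal median of 8 housekeeping genes, which moves the median of all genes by 0.46 to 0.84. The members' median then turned positive in all 5 comparisons with iPS cells, at 0.10 to 0.62. So did the median of all genes, at 0.46 to 0.84. The members' median minus that of all genes was still negative in each, at -0.49 to -0.21. A shift of that size, less than the 1 log2 unit of a 2-fold call, could not turn a 2-fold lower member into a higher one. The counts did change. They were then 0 higher and 1 lower in the adult library, 1 higher (Hk1) and 2 lower in the neonatal one, 4 higher and 0 lower with DMSO + NRG-1, 0 higher and 2 lower with NRG-1, and 4 higher and 0 lower with DMSO. In the neonatal library Slc2a1 and Pfkl, at -0.64 and -0.86 under the shift, were no longer 2-fold lower. The share of all genes past 2-fold was not counted under the shift. The shift equalises the median level of the 8 housekeeping genes, not their own differences. Under it the median of those differences from iPS cells was 0.64 with DMSO + NRG-1, 0.05 with NRG-1 and 0.53 with DMSO. In the adult and neonatal libraries it was 0.19 and 0.22. The members' medians with DMSO + NRG-1 and with DMSO, 0.58 and 0.62, were close to those of the housekeeping genes.

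**Figure D3:**
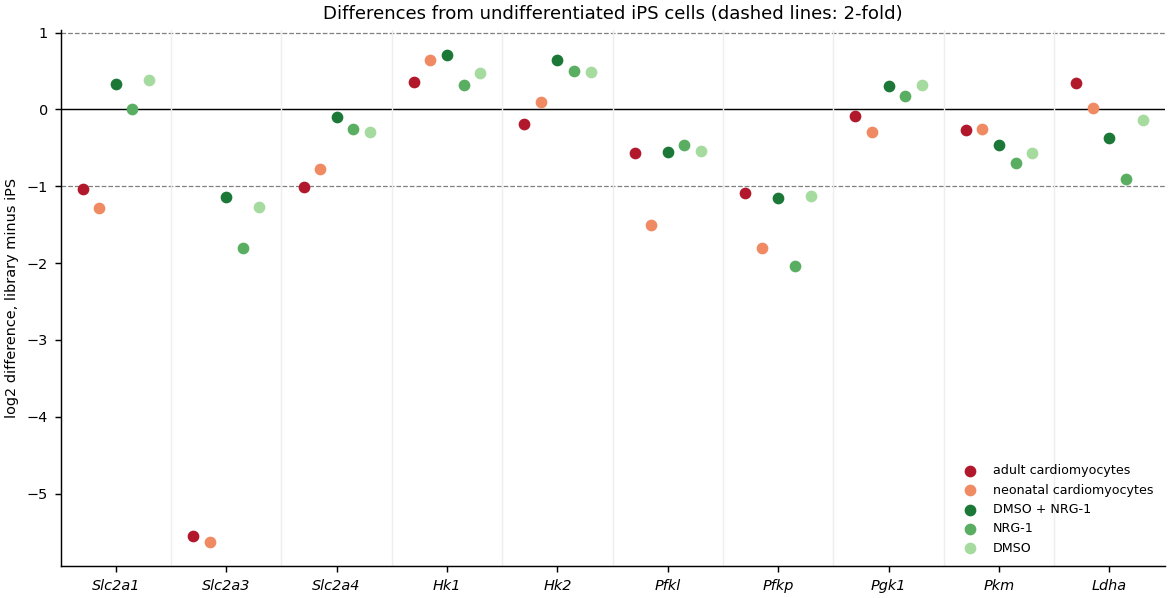
The y axis gives the log2 difference of each library minus iPS cells and the x axis the 10 genes, with 1 point per library and dashed lines at 2-fold. Slc2a3 lies at -5.55 and -5.62 in the adult and neonatal libraries, Pfkp lies below -1 in all 5 libraries, and Hk1 lies above 0 in all 5.

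Adult and neonatal libraries had similar levels for most members. Of the 9 that reached the median of all array values in either library, 0 were at least 2-fold higher and 0 lower, against 2.52% and 2.92% of 13164 genes. Pfkl (0.93, percentile 97.2 among these genes) and Pfkp (0.72, percentile 94.9) had the largest differences, and the median of the 10 was 0.14, against -0.03. The disagreement between probe sets of a gene, over 449 genes with 2 of them, had an SD of 0.345 in this comparison. It comes from within the same arrays and holds no spread between libraries. The differences of 0.07 for Slc2a3 and -0.02 for Pkm, with 1 probe set each, were smaller than it. Outside the list, genes at least 2-fold higher in adult than neonatal RNA included Eno2 (1.04), Slc16a3 (1.51) and Pck2, at 10.1 against 8.15. Pdk4 was lower in the adult library, at 7.24 against 8.27. Macrophage markers moved with this comparison, 5 of 9 being at least 2-fold higher and 0 lower in the adult library, and so did cardiomyocyte markers, 7 of 14 being lower. Their part in these differences was not tested.

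Among the cultures, the treatments with NRG-1 alone and with DMSO alone were set against each other. Pfkp differed by -0.92 (rank 304 from the lowest of 13343 genes), Ldha by -0.77 (rank 482), Slc2a3 by -0.54 and Slc2a1 by -0.38, and the other 6 by -0.15 to 0.08. Thus 7 of 10 were lower with NRG-1 alone, 0 by 2-fold, against 1.78% of genes 2-fold lower and 0.36% higher. The members' median was -0.15, against -0.03. The SD between probe sets of a gene was 0.305 here, a measure within the same arrays that holds no spread between cultures.

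DMSO + NRG-1 against NRG-1 alone gave the opposite picture for the same genes, with the NRG-1 library shared between the comparisons. Pfkp was higher by 0.88, Slc2a3 by 0.67, Ldha by 0.54, Hk1 by 0.39 and Slc2a1 by 0.33. In all, 9 of 10 members were above 0 and Pfkl was at -0.09, with 0 at 2-fold, against 1.08% of 13303 genes higher and 0.293% lower. The median was 0.28, against 0.04, and the SD between probe sets 0.299. DMSO + NRG-1 against DMSO alone gave small differences, from -0.23 for Ldha to 0.24 for Hk1, with 0 members at 2-fold, against 0.0455% of genes higher and 0.053% lower, and a median of 0.05, against 0.00. The SD between probe sets was 0.197 there. The level of Pfkp was 8.71 and 8.74 in the cultures that had DMSO, against 7.83 in the one that had none. With no untreated day-7 culture in the set, a higher level through DMSO and a lower one through NRG-1 alone cannot be told apart.

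**Figure D4:**
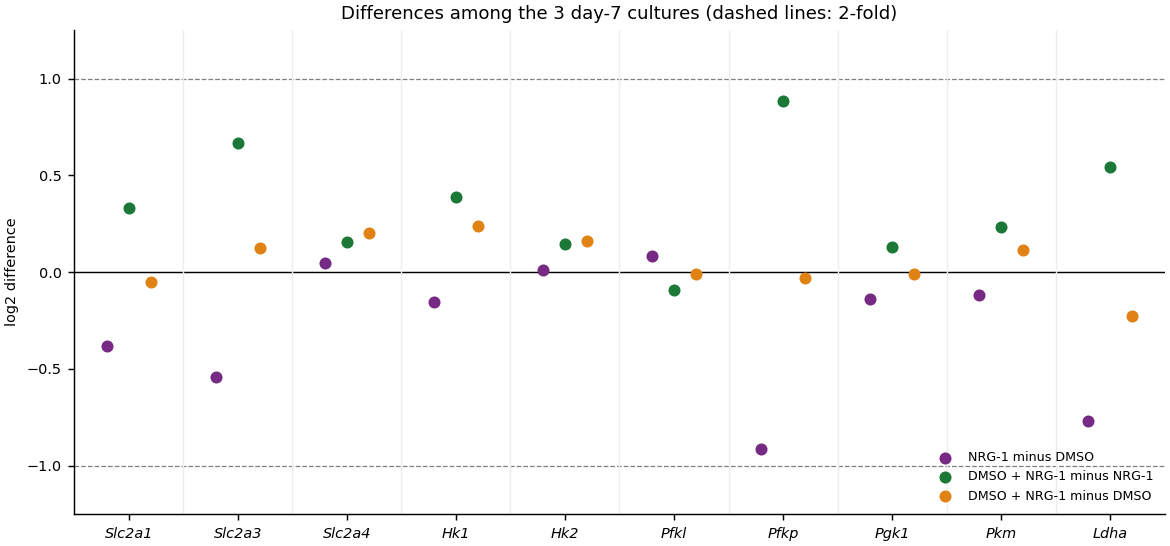
The y axis gives the log2 difference between cultures and the x axis the 10 genes, with 1 point per comparison and dashed lines at 2-fold. Pfkp, Ldha, Slc2a3 and Slc2a1 lie below 0 for NRG-1 minus DMSO and above 0 for DMSO + NRG-1 minus NRG-1, and all points lie inside 2-fold.

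Regulators of these genes and other targets of the same regulators were read beside them. Hif1a, the oxygen-sensitive subunit of hypoxia-inducible factor, varied between 7.44 in the neonatal library and 7.94 with DMSO + NRG-1. Epas1, its paralogue HIF-2 alpha, had 7.35 in the adult and 6.32 in the neonatal library, 10.001 with DMSO + NRG-1, 10.55 with NRG-1, 9.37 with DMSO and 8.19 in iPS cells. Many other hypoxia-responsive genes were higher in the cultures than in iPS cells. Among 13 of them, DMSO + NRG-1 had 8 at least 2-fold above iPS cells and 0 below, NRG-1 had 10 above and 1 below, and DMSO had 8 above and 0 below. Adm, adrenomedullin, was higher by 3.91, 3.29 and 4.10 in the same order, the collagen prolyl hydroxylases P4ha1 by 3.14, 3.14 and 2.93 and P4ha2 by 3.29, 3.41 and 3.07, and Egln3, an oxygen sensor, by 2.64, 2.53 and 2.43. Of the members, 0 of 10 were 2-fold higher in these cultures, where 13%, 11.3% and 13.1% of all genes were. Under the housekeeping shift 4, 0 and 4 members were higher, and 11, 10 and 11 of the 13 hypoxia-responsive genes. In the heart-derived libraries the same 13 genes went both ways, 4 being higher and 1 lower in the adult library and 2 higher and 5 lower in the neonatal one. Adm stood at 9.96 in the adult and 10.67 in the neonatal library, both above the highest culture (9.89). P4ha1 stood at 10.95 and 10.15 there, against 8.10 in iPS cells, and P4ha2 at 7.62 and 6.89, against 6.34. Egln3 was below its level in iPS cells (7.60) in both, at 6.80 and 6.57.

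Of 22 measured regulators, 6 were at least 2-fold higher in each of the cultures, and 2, 1 and 3 were lower with DMSO + NRG-1, NRG-1 and DMSO. Ppargc1a, the coactivator PGC-1 alpha that drives mitochondrial biogenesis, was higher than in iPS cells by 2.95, 2.00 and 3.75, Mef2a, a muscle transcription factor, by 2.06, 1.67 and 2.01, and the insulin receptor gene Insr by 1.55, 1.54 and 1.57. For Mef2a this was not particular to the cultures, as it stood at 10.09 in the adult and neonatal libraries, against 8.13 in iPS cells. Arrdc4 had 9.18 with DMSO + NRG-1, 9.07 with NRG-1 and 9.03 with DMSO, against 7.28 in iPS cells. Its level was 8.08 in the adult and 7.63 in the neonatal library. Between NRG-1 and DMSO alone, Ppargc1a differed by -1.75 and Epas1 by 1.18. Myc, which activates many glycolytic genes, was higher by 1.59 in the adult and 1.57 in the neonatal library, and its paralogue Mycn was lower, at -1.58 and -2.08. Txnip, which curbs glucose uptake, ranged from 9.10 in the neonatal library to 10.18 with DMSO.

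Neighbouring pathways were mixed. Of 7 genes of gluconeogenesis, 0 were higher and 3 lower with DMSO + NRG-1, 0 and 4 with NRG-1 and 0 and 3 with DMSO, and pyruvate carboxylase (Pcx) was lower, at -1.68, -1.84 and -1.87. In the adult library 1 was higher, Pck2, the mitochondrial PEP carboxykinase (1.65), and 3 were lower, Pcx (-1.71), Fbp2 (-1.61) and Fbp1 (-1.24), and in the neonatal library 0 were higher and 2 lower, Fbp2 (-1.74) and Pcx (-1.08). Of 10 genes of glycogen metabolism, 3, 2 and 3 were higher and 0, 1 and 0 lower in the cultures in the same order. The higher ones included the branching enzyme Gbe1 (1.53, 1.30 and 1.56). Gbe1 also stood at 7.80 in the neonatal and 6.98 in the adult library, against 6.30 in iPS cells. Glycogenin (Gyg) was higher by 1.87 in the adult and 1.70 in the neonatal library. It was also higher in the cultures, at 8.48 with DMSO + NRG-1, 8.20 with NRG-1 and 8.57 with DMSO, against 7.31 in iPS cells. Of 5 genes of the pentose phosphate pathway, Rpia was higher by 1.11, 1.70 and 1.32 in the cultures, Rpe was lower with NRG-1, at -1.21, and none was 2-fold apart in either heart-derived library.

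Promoter windows are shown as examples for Slc2a1, Hk2 and Pgk1, which stood higher in the 3 cultures than in both heart-derived libraries, and for Pfkp, which stood below iPS cells everywhere. They run from 250 bases before to 50 bases after the RefSeq start of the gene (GRCm38.p6), 5′ to 3′ on the gene's strand. Capitals mark ACGTG or its reverse complement CACGT, a form of the core of the element bound by hypoxia-inducible factor, which overlaps the E-box CACGTG. The other form of that core, GCGTG, was not searched for and is not marked.

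Slc2a1, chr4:119108495-119108794, + strand: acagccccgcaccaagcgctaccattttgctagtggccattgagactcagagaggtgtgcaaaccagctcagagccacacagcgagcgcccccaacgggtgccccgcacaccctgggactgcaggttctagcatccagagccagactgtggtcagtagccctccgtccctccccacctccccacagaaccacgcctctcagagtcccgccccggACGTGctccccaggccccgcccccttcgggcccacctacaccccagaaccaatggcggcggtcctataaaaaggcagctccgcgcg

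Hk2, chr6:82774405-82774704, - strand: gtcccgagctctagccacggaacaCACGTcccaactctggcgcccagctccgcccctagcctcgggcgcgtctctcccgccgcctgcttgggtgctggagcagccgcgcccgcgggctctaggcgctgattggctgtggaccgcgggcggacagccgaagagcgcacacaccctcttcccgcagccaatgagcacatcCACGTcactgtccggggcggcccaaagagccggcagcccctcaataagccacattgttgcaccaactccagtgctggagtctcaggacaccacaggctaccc

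Pgk1, chrX:106186850-106187149, + strand: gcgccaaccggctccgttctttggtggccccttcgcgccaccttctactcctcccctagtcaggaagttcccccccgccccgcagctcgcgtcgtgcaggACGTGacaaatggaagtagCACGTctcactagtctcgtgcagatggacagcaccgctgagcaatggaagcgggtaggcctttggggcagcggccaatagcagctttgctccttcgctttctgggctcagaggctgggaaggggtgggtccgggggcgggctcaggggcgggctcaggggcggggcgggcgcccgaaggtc

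Pfkp, chr13:6648722-6649021, - strand: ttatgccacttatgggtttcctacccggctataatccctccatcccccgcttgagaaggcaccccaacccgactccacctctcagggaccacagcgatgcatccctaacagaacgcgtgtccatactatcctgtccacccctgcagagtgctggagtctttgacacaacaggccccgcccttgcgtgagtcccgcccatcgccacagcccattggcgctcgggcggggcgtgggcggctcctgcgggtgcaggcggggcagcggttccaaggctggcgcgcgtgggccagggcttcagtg

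RefSeq windows were at hand for 8 of the 10 genes, 11 windows in all, and Slc2a3 and Slc2a4 had none. The motif occurs once in the Slc2a1 window, its first base at -36 from the start, at -226 and -52 in that of Hk2 and at -150 and -131 in that of Pgk1. The Pfkp window has no ACGTG on either strand, and neither has that of Pfkl. Both do hold GCGTG, which was not counted in any window. Pfkl also stood higher in every culture than in both heart-derived libraries, by at least 0.02. Hk1 and Pkm, which did not, have 2 matches each in 1 of their windows and none in the other. Ldha, likewise without that pattern, has 5 matches in 1 of its windows, from 2 E-boxes that match on both strands and 1 further site, and none in the other. In all, 6 of the 11 windows held a match, against 19.6% of 32851 mouse promoter windows of the same length. The members' windows are rich in G and C, 51.3% to 67.3%, and the comparison takes no account of base composition. A match is a string of letters and shows no binding.

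Genes with profiles most like those of Slc2a3 and Pfkp, the members that spanned at least 2 log2 units, were sought among 13180 named genes. Likeness was the root mean square distance between profiles over the 6 libraries, each profile centred on its own mean. The nearest to Slc2a3 were Car2 (0.465), a carbonic anhydrase, Fam169a (0.491) and Bex4 (0.493). Car2 had 4.98 in the adult and 4.11 in the neonatal library, 8.45, 8.51 and 8.67 with DMSO + NRG-1, NRG-1 and DMSO, and 9.12 in iPS cells. The nearest to Pfkp were Clybl (0.116), Nudt4 (0.185) and Bcl3 (0.215), all lowest in the NRG-1 or neonatal library and highest in iPS cells. Within the list the closest pair was Hk2 and Pgk1 (0.181) and the most distant Slc2a3 and Ldha (2.42).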

How the data were processed

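Per the submitters' processing notes the authors used RMA, and the deposited values are on a log2 scale, one for each of 41345 probe sets and 6 arrays. The software and its version are not stated there. The labels' protocols give 300 ng of total RNA as input to the sense cDNA. The sorted columns differ by at most 0.285, so a change of most genes at once cannot be seen. An array has no read depth, and no background values came with the table.

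The platform annotation gave 1 symbol to 23521 probe sets, several to 1814 and none here to 16010. Single-symbol probe sets of a gene were averaged (22180 genes). Genes were counted where the higher value of a comparison reached the array-wide median (5.20), and called at 2-fold. There were 9 comparisons. With 1 library per group no test was run. Counting and likeness steps were tested on simulated data (Python 3.11.15, pandas 2.3.3, numpy 2.4.6).

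The members and all gene lists were chosen with earlier results of these data known. The lists were further glycolytic enzymes, glucose carriers, lactate and pyruvate carriers, PFKFB enzymes, pyruvate dehydrogenase, gluconeogenesis, glycogen, pentose phosphate, regulators, hypoxia-responsive genes, housekeeping genes and cell markers. All members are named with every value. Of a list, the text names up to 4 genes per comparison, mainly those with the largest differences past 2-fold, and isozymes of members. Not every gene past 2-fold is named. Gapdh, Hif1a, Txnip and a few others were added with their values in view. Alternatives tried were the brightest probe set, cyclic loess (limma 3.58.1), a housekeeping shift, no filter and a filter at the 75th percentile (6.93).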

Additional observations from a re-analysis of the deposited data

How the results depend on the processing

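With the brightest probe set of each gene, no filter, or the filter at the 75th percentile, every member difference and median that the setting affects stayed within 1.5-fold of its value, and so did the counts of members 2-fold apart. Cyclic loess did the same except for the count in adult minus neonatal libraries, which was 1 member in place of 0. The shift to an equal median of 8 housekeeping genes moved 30 of 90 member differences by 1.5-fold or more. It is smaller than 2-fold in every comparison, so no member that was 2-fold apart could change sign under it. Under it the members' median was 0.12 for neonatal minus iPS, 0.62 for DMSO minus iPS and 0.58 for DMSO + NRG-1 minus iPS. The median of all genes was then 0.61, 0.84 and 0.79 in the same order. That of the 8 housekeeping genes' own differences was 0.22, 0.53 and 0.64. The members 2-fold apart then numbered 1 for adult minus iPS, 4 for DMSO minus iPS, 4 for DMSO + NRG-1 minus iPS, 2 for NRG-1 minus DMSO and 2 for DMSO + NRG-1 minus NRG-1. Because that shift moves every gene of a comparison alike, it leaves the order of genes unchanged. No gene of the other lists that was 2-fold apart changed sign under cyclic loess, and under the shift none could. No paired analysis was possible because each group has 1 library. Signal near background limits Slc2a4 in particular, and the low level of Ldha, 5.69 with NRG-1, limits its differences too.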
